A study of Mus musculus with 30 samples.

Results

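The amino acid and glucose transporters of the solute carrier (SLC) superfamily were followed across 30 mouse samples on a 1-colour oligonucleotide array. Members were all probes whose gene symbol belongs to the Slc1, Slc2, Slc3, Slc6, Slc7, Slc16, Slc36 or Slc38 family, with Slc38a4 left out. This gave 81 of the 19084 named genes on the array and 94 of its 26423 probes. The families contributed 7 (Slc1), 12 (Slc2), 2 (Slc3), 18 (Slc6), 15 (Slc7), 13 (Slc16), 4 (Slc36) and 10 (Slc38) genes. The rule reads gene symbols and no measured value.

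Slc2 proteins carry glucose and other sugars down their gradient, and Slc16 proteins include the carriers that move lactate out of or into the cell. Slc1, Slc6, Slc7, Slc36 and Slc38 proteins carry amino acids and related compounds, and several Slc7 proteins reach the cell surface only as dimers with the heavy chains Slc3a1 or Slc3a2. Mouse embryonic stem cells are known for a high glycolytic rate and for their dependence on amino acids such as glutamine, threonine and proline.

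The series compared pluripotent lines made from mouse somatic cells by small molecules with their cells of origin, with embryonic stem cells (ESC) and with lines made by transcription factors. Somatic samples numbered 7, none of them treated. Mouse embryonic fibroblasts gave 4 (MEF1, MEF2, MEF3 and the wild-type sample WT MEF). The other 3 were neonatal fibroblasts, called MNF, fibroblasts of adult lung, called MAF, and stem cells from adipose tissue, called ADSC. Chemically induced lines (CiPSC) numbered 11, from MEF (CiPS34, CiPS50, CiPS21, CiPS45, CiPS WT1, CiPS WT2 and the line called CiPSC control), MNF (MNF CiPS7, MNF CiPS1), MAF (MAF CiPS3) and, by its title, ADSC (ADSC CiPS2, whose source field names fibroblasts of adult lung instead). The labels write the compounds as codes, VC6TF+Z for the CiPSC control and others such as FC6+Z for CiPS45, and do not say whether lines are clones. OSKM iPSC (2 lines, no chemical) and SKM-FSK iPSC (2 lines, chemical code F) came from MEF, and ESC were 4 samples of the line R1 (ESC1, ESC3, ESC4, ESC5) and 1 of the line TT2 (ESC2). MEF under chemicals were sampled once each at days 12 (VC6TF), 20 and 32 (VC6TF+Z). Somatic cells grew in serum medium, whereas all pluripotent lines grew in ESC medium on mitotically inactivated MEF feeders, so medium and feeder RNA go with the groups and cannot be told apart from them. The samples fell into 5 sets of 7, 9, 4, 4 and 6 samples, each normalized on its own by the authors and each with 1 ESC sample. Of the members, 49, 55, 55, 69 and 81 genes were measured in sets 1 to 5, 43 of them in all 5.

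The labelled cell types were checked against marker genes. Summed intensity of the fibroblast markers (2 measured in set 1 and 12 in set 5) lay between 67890 and 311300 in somatic samples, between 418.6 and 4918 in ESC and between 286.6 and 18440 in CiPSC. The 2 CiPSC lines of set 3 held 15670 (CiPS WT1) and 18440 (CiPS WT2), against 131900 in WT MEF and 1345 in ESC3 of the same set. Pluripotency markers summed to 439.6 to 2264 in somatic samples, 36600 to 113400 in CiPSC and 42230 to 169600 in ESC. Pooled over sets, which differ in scale and in the markers measured, sums for macrophage, adipocyte and endothelial markers overlapped between somatic samples and CiPSC. They were 906.1 to 24140 against 2948 to 19180, 3247 to 46040 against 564.6 to 4592, and 238.1 to 2430 against 442 to 1307. Within sets the adipocyte sums overlapped in set 1 alone. They were higher in somatic samples of set 2 (4972 to 46040 against 2223 to 3424), set 3 (8140 against 564.6 and 738.6) and set 5 (5967 against 1346). Macrophage sums went both ways between sets, and endothelial sums were higher in CiPSC of sets 1, 3 and 5. Extraembryonic endoderm markers summed to 1683 to 7461 in somatic samples (median 4280) and 491.5 to 1854 in CiPSC (median 779.7). The part of other cell types in the differences was not tested. In set 5, MEF3 stood at least 2-fold above or below all 5 other samples, which lay within 2-fold of each other, at 11% of 23609 genes and unnamed probes, including 12 of 81 members. The day 12, day 20, day 32, CiPSC control and ESC5 samples stood apart in this way at 0.0424, 0.0508, 0.411, 0.407 and 1.05%. Calls that changed without MEF3 or without the CiPS WT lines are given beside each gene. Each sample was 1 value, an apparent average of 2 or 3 arrays, and nothing says that these came from separate cultures. The p-values measure the spread between these samples, which include different lines and somatic cell types. How much of that spread is technical cannot be told.

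Differences between groups were fitted with limma on the log2 scale, with a term for each set, over all 30 samples. A gene was called at a Benjamini-Hochberg adjusted p under 0.05, taken over all genes tested, with a change of at least 2-fold. The 4 comparisons with somatic samples share those samples, so their values are given side by side and not as independent evidence. In CiPSC, 6 of 59 tested members were called higher and 9 lower than in somatic samples, against 14.8 and 13.3% of all 16497 genes tested. Here and below, all genes include probes that name no gene. The median difference was -0.08 over the members and -0.11 over all genes. In ESC, 9 of 59 were called higher and 9 lower, against 15.1 and 14.2% of all genes, with medians of 0.01 and -0.10. In OSKM iPSC, 5 of 57 were higher and 6 lower, against 9.31 and 8.17%, and in SKM-FSK iPSC, 2 of 58 were higher and 4 lower, against 7.29 and 7.92%. All these shares lie near or below those of all genes. Both SKM-FSK lines were in set 4, where MEF2 was the only somatic sample. The median SE over the members was 0.48 in OSKM iPSC and 0.56 in SKM-FSK iPSC, against 0.29 in CiPSC. In simulated data the fit recovered 33 of 100 log2 differences of 2 in OSKM iPSC and 9 of 100 in SKM-FSK iPSC. Few genes were changed there, which makes the adjusted p harder to pass than in the real data. A missed call in these 2 groups does not show that a member was unchanged. The calls against somatic samples fell on 21 genes, which the plot of fitted differences shows. Of the 81 members, 22 were tested in no comparison, 11 of them measured in set 5 alone and 11 in sets 4 and 5 alone. Intensity never passed 100 in 12 members, of which Slc16a13 alone was tested.

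**Figure D1:**
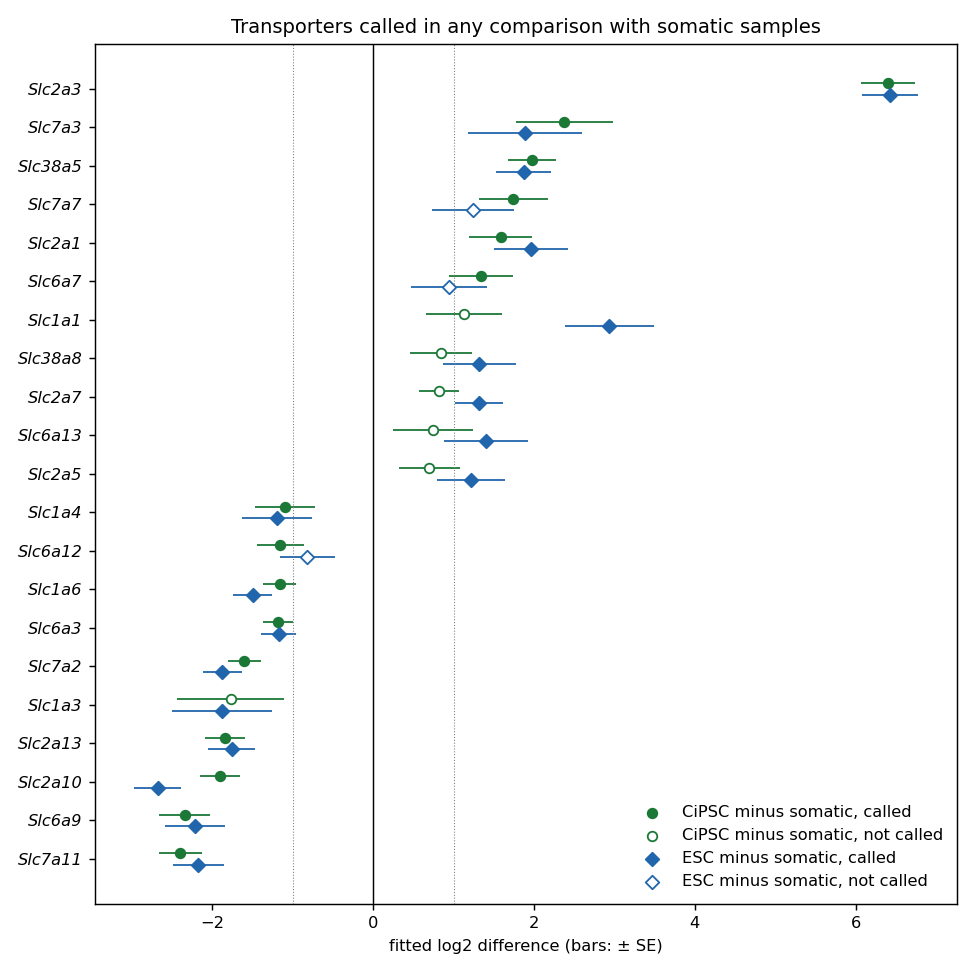
Fitted log2 difference from somatic samples (horizontal axis, points with ± SE) for the 21 members called in any comparison with somatic samples, in CiPSC (circles) and ESC (diamonds); filled symbols were called and open symbols were not. Slc2a3 lies apart from all others at 6.40 and 6.43, and Slc1a1 is the member for which the CiPSC and ESC values lie farthest apart.

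Among the glucose carriers, Slc2a3, the high-affinity carrier GLUT3, had the largest difference of all members. Its intensity was 328, 172, 358 and 798 in the 4 somatic samples measured (MEF1, WT MEF, MEF2 and MEF3). In 7 CiPSC samples the lowest, median and highest values were 20958, 25338 and 38304. The 4 ESC samples gave 27275, 27933, 46797 and 24660, OSKM iPS1 38979.8 and the SKM-FSK lines 48975 and 52728. Every pluripotent sample lay above every somatic one. The fitted log2 difference from somatic samples was 6.40 ± 0.34 (SE, limma adjusted p = 2.23e-09) in CiPSC, a fold of 84.7. The same fit gave 6.43 ± 0.35 in ESC (adjusted p = 5.36e-09), 6.77 ± 0.59 in OSKM iPSC and 6.85 ± 0.53 in SKM-FSK iPSC. The probe was not measured in set 2, so MNF, MAF and ADSC are not covered, and the OSKM value rests on 1 line. Under all alternatives tried the CiPSC difference stayed between 6.11 and 6.95.

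Slc2a1, the widely expressed carrier GLUT1, was also higher, with far more overlap. Somatic samples ranged from 329 (MEF3) through a median of 2663 to 9818 (MAF). CiPSC had a lowest, median and highest value of 4021, 7153 and 10535, and the 5 ESC samples had 9273, 5855, 7488, 15022 and 4034. MAF and ADSC (7996) lay among the pluripotent lines of their set, and the MEF and MNF samples were lower than every pluripotent line of theirs. The fitted difference was 1.59 ± 0.39 in CiPSC (adjusted p = 0.00254) and 1.96 ± 0.46 in ESC (adjusted p = 0.00192). SKM-FSK iPSC reached 28429 and 30622 against 1449 in MEF2, a difference of 3.64 ± 0.81 (adjusted p = 0.00352). OSKM iPSC (5404 and 5311) gave 0.99 ± 0.65, which was not called (adjusted p = 0.347).

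Slc2a7 and Slc2a5, the latter known as a fructose carrier, showed smaller differences at low intensity. Slc2a7 was called in ESC (1.32 ± 0.30, adjusted p = 0.00136) and OSKM iPSC (1.43 ± 0.42, adjusted p = 0.0187), and in CiPSC it passed the p but not the 2-fold limit (0.82 ± 0.25, adjusted p = 0.0131). Its values ran from 59.4 to 128 in somatic samples and from 119.8 to 358 in ESC. Slc2a5 was called higher in ESC (1.22 ± 0.43, adjusted p = 0.0359), but without ESC5 (259, against 85.7, 39.2 and 210 in the other ESC) the difference was 0.63 with an adjusted p of 0.21, and without MEF3 it was 0.70 with an adjusted p of 0.0734. Without MNF it was 1.19 (adjusted p = 0.0508), and without the 2 CiPS WT lines 1.23 (adjusted p = 0.0559). The Slc2a7 call in OSKM iPSC was lost without OSKM iPS1 (0.79, adjusted p = 0.404).

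Slc2a10 and Slc2a13 went the other way. Slc2a10 (GLUT10), a carrier of inner membranes, fell in all 4 pluripotent groups. Its somatic values were 84.8, 161 and 664 at the lowest, median and highest, and those of CiPSC were 31.1, 49.1 and 67.8. The 5 ESC samples gave 28.7, 33.6, 26.5, 43.7 and 40.4. All 20 pluripotent samples lay below all 7 somatic ones, with no overlap even across sets. The differences were -1.90 ± 0.25 in CiPSC (adjusted p = 2.15e-06), -2.68 ± 0.29 in ESC, -1.92 ± 0.41 in OSKM iPSC and -4.23 ± 0.51 in SKM-FSK iPSC. The SKM-FSK lines held 13 and 40.3, and the 13 was the only value of Slc2a10 under 16. The size of that difference thus rests partly on a value near background, and it ran from -5.05 to -3.09 under the alternatives.

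Slc2a13, the proton-coupled myo-inositol carrier, ranged over 197, 452 and 1055 in somatic samples and 57.2, 105 and 177 in CiPSC (lowest, median, highest). Within every set each pluripotent sample was below each somatic sample. It was lower by 1.84 ± 0.25 in CiPSC (log2 scale, adjusted p = 4.22e-06), with -1.76 ± 0.30 in ESC, -1.73 ± 0.41 in OSKM iPSC and -2.28 ± 0.52 in SKM-FSK iPSC. The OSKM call needed both lines (adjusted p = 0.0587 without OSKM iPS1 and 0.0625 without OSKM iPS2). The muscle and fat carrier Slc2a4 (GLUT4) was not called: its values were 182, 251 and 1674 in somatic samples and 176, 267 and 365 in CiPSC, and the somatic maximum was MEF3 alone.

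**Figure D2:**
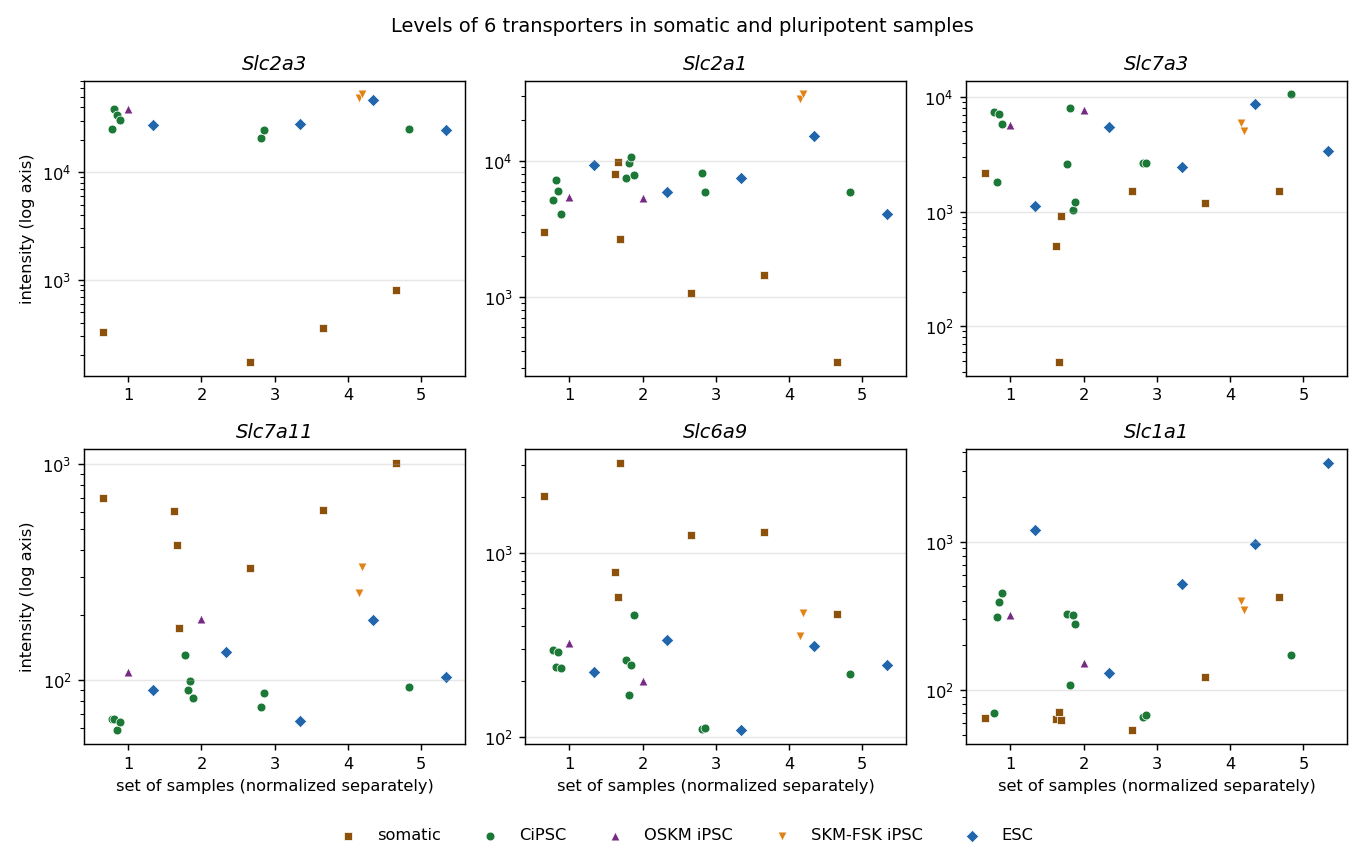
Intensity (vertical log axes) of 6 members in each somatic and pluripotent sample, placed by set (horizontal axes, sets 1 to 5); each point is 1 sample and symbols give the group. Slc2a3 separates the groups in every set that measured it, Slc7a11 and Slc6a9 are higher in the somatic samples, and in Slc1a1 the R1 samples of ESC lie above the other lines of their sets.

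Among the light chains that pair with Slc3a2, Slc7a11 (xCT), which brings in cystine in exchange for glutamate, was the member with the largest fall in CiPSC. Somatic samples held 700.3, 175, 424, 605, 329, 616 and 1016 (MEF1, MNF, MAF, ADSC, WT MEF, MEF2 and MEF3). CiPSC had a lowest, median and highest value of 58.5, 83.1 and 131, and ESC gave 90.4, 136, 64.6, 190.4 and 104. Of 20 pluripotent samples 19 lay below every somatic sample of their set, the exception being OSKM iPS2 (192) beside MNF (175). The difference was -2.40 ± 0.27 in CiPSC (adjusted p = 2.34e-07), -2.17 ± 0.31 in ESC (adjusted p = 1.06e-05) and -1.55 ± 0.44 in OSKM iPSC (adjusted p = 0.0149). In SKM-FSK iPSC (252 and 335, against 616 in MEF2) it was -1.32 ± 0.55 and not called (adjusted p = 0.116). The OSKM call was lost without OSKM iPS1 (-1.27, adjusted p = 0.183) or OSKM iPS2 (-1.86, adjusted p = 0.0627).

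Slc7a11 is a textbook target of the transcription factor ATF4, which binds amino acid response elements, so the RefSeq promoter table (build GRCm38.p6, 250 bases before to 50 after each start) was searched for the core TGATGNAA on both strands. The table held 59 of the 81 members, and the first listed start of each gene was used. The core was present in 4 of these 59 promoters (6.78%) and in 4.06% of all 27025 entries. The 4 were Slc7a11, Slc1a4, Slc7a7 and Slc6a21. Slc7a11 and Slc1a4 were called lower and Slc7a7 higher in at least 1 comparison, where 21 of the 81 members were called. The promoters of these 3 genes are printed 5′ to 3′ with the core or its complement in capitals. They lie on the minus strand at chr3:50443564-50443863, chr11:20332664-20332963 and chr14:54417895-54418194.
Slc7a11: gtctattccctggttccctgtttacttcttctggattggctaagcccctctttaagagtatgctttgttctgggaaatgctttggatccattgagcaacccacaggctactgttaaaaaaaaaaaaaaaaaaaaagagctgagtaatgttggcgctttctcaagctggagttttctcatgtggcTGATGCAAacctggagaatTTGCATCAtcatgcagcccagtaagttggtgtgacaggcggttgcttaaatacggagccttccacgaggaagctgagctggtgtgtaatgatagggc
Slc1a4: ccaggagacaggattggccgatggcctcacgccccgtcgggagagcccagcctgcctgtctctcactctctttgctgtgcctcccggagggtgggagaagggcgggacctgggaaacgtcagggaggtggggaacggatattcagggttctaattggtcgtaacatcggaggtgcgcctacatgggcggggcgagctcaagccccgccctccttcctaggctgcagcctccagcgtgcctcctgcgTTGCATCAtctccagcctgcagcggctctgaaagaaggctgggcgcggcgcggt
Slc7a7: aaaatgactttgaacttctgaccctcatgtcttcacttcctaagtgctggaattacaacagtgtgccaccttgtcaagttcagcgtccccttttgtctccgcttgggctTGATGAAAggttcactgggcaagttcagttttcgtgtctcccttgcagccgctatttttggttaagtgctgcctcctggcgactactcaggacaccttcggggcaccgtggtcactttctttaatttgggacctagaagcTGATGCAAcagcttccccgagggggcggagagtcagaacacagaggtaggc
The 2 matches of Slc7a11 begin 66 and 47 bases before the listed start, in opposite orientations. That of Slc1a4 begins 4 bases before it, and those of Slc7a7, which has further listed starts, begin 141 bases and 1 base before it. The RefSeq span of Slc7a11 runs on to chr3:50499087, upstream of the start used, so its matches hold for that start alone. The E-box CACGTG was found in 10 of the 59 (16.9%) against 7.24% of all entries, and the antioxidant response element TGACNNNGC in 9 (15.3%) against 12.5%. None of the 3 printed promoters held either. These are matches of letters and not shown binding sites.

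The heavy chain Slc3a2 (CD98), the shared partner of Slc7a11, Slc7a5 and Slc7a7, was not called in any comparison. Its values were 5584, 10505 and 24660 in somatic samples, 6072, 11797 and 21545 in CiPSC and 5873, 11692 and 21344 in ESC (lowest, median, highest), with differences of -0.02 ± 0.27 and 0.05 ± 0.32. Slc7a5 (LAT1), which imports large neutral amino acids such as leucine, was not called either (0.25 ± 0.46 in CiPSC, adjusted p = 0.683, and 0.51 ± 0.54 in ESC). Its sets went opposite ways: the CiPSC mean was 1.39 below WT MEF in set 3 and 2.04 above MEF3 in set 5. Somatic Slc7a5 values spread widely, from 265 in MAF to 4058 in MNF. Slc7a8 (LAT2) gave -0.11 ± 0.29 and Slc7a6 (y+LAT2) -0.04 ± 0.24 in CiPSC, neither called.

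Slc7a7 (y+LAT1), an exchanger of cationic for neutral amino acids, was called higher in CiPSC (1.74 ± 0.43, adjusted p = 0.00263) and OSKM iPSC (2.67 ± 0.71, adjusted p = 0.0102), not in ESC (1.25 ± 0.51, adjusted p = 0.0605). Somatic values were 23.0, 108 and 248 and CiPSC values 111, 293 and 984 (lowest, median, highest), with ESC at 176, 214, 88.0, 225 and 509. No pluripotent sample lay below all somatic samples of its set, and 18 of 20 lay above all of them. The lowest somatic value is that of MEF3, where the other 5 samples of set 5 were between 492 and 518. The CiPSC call remained without MEF3, and the OSKM call was lost without OSKM iPS1 (adjusted p = 0.0757) or OSKM iPS2 (adjusted p = 0.119).

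The 3 cationic amino acid carriers, which import arginine and lysine, behaved differently from each other. Slc7a3 (CAT3) was called higher in CiPSC (2.38 ± 0.60, adjusted p = 0.00314), ESC (1.88 ± 0.71, adjusted p = 0.042) and OSKM iPSC (3.42 ± 0.99, adjusted p = 0.0177). Its somatic values were 2185, 907, 48.4, 499.5, 1521, 1188 and 1519.8 (MEF1, MNF, MAF, ADSC, WT MEF, MEF2, MEF3). CiPSC ranged over 1037, 2653 and 10515 (lowest, median, highest), and ESC held 1116, 5423, 2435, 8718 and 3401. Groups overlapped: ESC1 and CiPS34 (1820.4) lay below MEF1 of the same set. With MEF as the only somatic samples the differences were 1.55 (adjusted p = 0.0598) in CiPSC and 1.23 (adjusted p = 0.137) in ESC. The ESC call was also lost without any 1 of MAF (1.41), ADSC (1.90), ESC2 (1.29), ESC3 (1.92), MEF2 or ESC4 (1.67 each) or MEF3 (1.91), with adjusted p from 0.0501 to 0.185. Without the 2 CiPS WT lines it was 1.84 (adjusted p = 0.06). The OSKM call was lost without OSKM iPS2 (2.64, adjusted p = 0.294), with MEF as the only somatic samples (2.49, adjusted p = 0.0645) and in the sets holding both groups alone (3.61, adjusted p = 0.0501).

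Slc7a2 (CAT2) fell in all 4 groups, from 296, 777 and 1249.5 in somatic samples (lowest, median, highest) to 113, 213 and 370.2 in CiPSC and 176, 266, 122, 332 and 112 in ESC1 to ESC5. Every pluripotent sample was below every somatic sample of its set. The differences were -1.60 ± 0.20 in CiPSC (adjusted p = 1.57e-06), -1.87 ± 0.24 in ESC, -1.96 ± 0.33 in OSKM iPSC and -2.27 ± 0.42 in SKM-FSK iPSC, and no alternative ended a call. Slc7a1 (CAT1), with values of 882, 3886 and 10984 in somatic samples and 1037, 3044 and 9218 in CiPSC, was not called (0.05 ± 0.39 in CiPSC and 0.29 ± 0.46 in ESC).

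Among the glutamate and neutral amino acid carriers of family Slc1, Slc1a1 (EAAT3), a glutamate and cysteine importer, was highest in the R1 samples of ESC. Its ESC values were 1203, 520.4, 960.2 and 3414 in the R1 samples and 131 in the TT2 sample ESC2. CiPSC ranged over 65.8, 279 and 448 and somatic samples over 53.2, 64.6 and 424 (lowest, median, highest). In each of sets 1, 3, 4 and 5 the R1 sample was the highest of all, and in set 2 the TT2 sample was below 3 of the 4 CiPSC lines. The difference from somatic samples was 2.94 ± 0.55 in ESC (adjusted p = 0.000232) and 1.13 ± 0.47 in CiPSC, not called (adjusted p = 0.0624). In CiPSC it was called without MEF3 (1.31, adjusted p = 0.0346), whose 424 was the highest somatic value, and without the 2 CiPS WT lines (1.35, adjusted p = 0.0493).

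Slc1a6 (EAAT4), another glutamate carrier, fell in all 4 groups: -1.16 ± 0.20 in CiPSC (adjusted p = 8.84e-05), -1.50 ± 0.24 in ESC, -1.77 ± 0.34 in OSKM iPSC and -1.79 ± 0.42 in SKM-FSK iPSC. Its intensities were modest, 75.8, 172 and 563 in somatic samples and 62.6, 74.8 and 105 in CiPSC (lowest, median, highest), yet within each set no pluripotent sample reached a somatic one. Without set 5 the CiPSC difference was -0.96 (adjusted p = 0.000108), just inside 2-fold. The SKM-FSK call was lost without SKM-FSK2 (-1.62, adjusted p = 0.0666). Slc1a3 (GLAST), measured in sets 3 to 5 alone, fell in ESC (-1.88 ± 0.62, adjusted p = 0.0414) from somatic values of 442, 1653 and 206 to 112, 149 and 182. Leaving out MEF2 or ESC4 reduced this to -1.08 (adjusted p = 0.233). The call was also lost without WT MEF (-1.67), ESC3 (-2.01) or the 2 CiPS WT lines (adjusted p = 0.0551). In SKM-FSK iPSC Slc1a3 gave -2.69 ± 0.82, not called (adjusted p = 0.0583), and was called without MEF3 (-3.10, adjusted p = 0.00669).

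Slc1a4 (ASCT1), which carries serine, alanine and cysteine, was called lower in CiPSC (-1.09 ± 0.37, adjusted p = 0.0238) and ESC (-1.20 ± 0.44, adjusted p = 0.0378). Somatic values ran from 820.1 (MAF) to 7416 (MEF1), and pluripotent lines overlapped them in set 2, where MAF CiPS3 had 3433. The call was fragile: without MEF1 the differences were -0.77 (adjusted p = 0.118) and -0.94 (adjusted p = 0.0928), and without the CiPS WT lines the CiPSC difference was -1.02 (adjusted p = 0.0685). The CiPSC call was also lost without MNF (-0.92), WT MEF (-0.99), the CiPSC control (-0.99) or CiPS45 (just inside 2-fold). The ESC call was lost without any 1 of MNF, WT MEF, MEF2, MEF3, ESC1, ESC2, ESC3 or ESC4 (-1.23 to -1.06, adjusted p from 0.0513 to 0.0921). Slc1a5 (ASCT2), the main glutamine importer of many dividing cells, was not called against somatic samples (0.50 ± 0.31 in CiPSC and -0.71 ± 0.37 in ESC).

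In family Slc6, whose members carry neurotransmitters, glycine, proline, taurine and creatine with sodium, the glycine carrier Slc6a9 (GlyT1) had the largest fall. Somatic samples held 2029, 3087, 575, 785, 1241, 1291 and 467 (MEF1, MNF, MAF, ADSC, WT MEF, MEF2, MEF3), CiPSC 109.6, 239 and 459.9 (lowest, median, highest) and ESC 226, 336, 108, 309.9 and 245. Each of the 20 pluripotent samples was below every somatic sample of its set. The difference was -2.34 ± 0.32 in CiPSC (adjusted p = 3.65e-06), -2.22 ± 0.37 in ESC (adjusted p = 6.73e-05), -2.38 ± 0.52 in OSKM iPSC (adjusted p = 0.00241) and -1.74 ± 0.65 in SKM-FSK iPSC (adjusted p = 0.0785, not called). Without OSKM iPS2 the OSKM value was -2.08 and not called (adjusted p = 0.0837), and without MEF3 the SKM-FSK value was -1.86 and called (adjusted p = 0.0302).

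Slc6a7, the proline carrier PROT, rose in CiPSC (1.34 ± 0.40, adjusted p = 0.0102) from 44.9, 105 and 409.6 to 149, 272 and 1072 (lowest, median, highest), and was not called in ESC (0.94 ± 0.47, adjusted p = 0.122). Slc6a3, the dopamine carrier, fell in CiPSC (-1.19 ± 0.19, adjusted p = 2.68e-05) and ESC (-1.17 ± 0.22, adjusted p = 0.000227), with 303, 484 and 857 in somatic samples and 134, 180.5 and 308 in CiPSC. Slc6a12, a betaine and GABA carrier, fell in CiPSC alone by the call rule (-1.15 ± 0.29, adjusted p = 0.00365; ESC -0.82 ± 0.34), and without MAF, its highest sample at 221, the difference was -0.89, and without MEF3 it was -0.99. The difference between CiPSC and ESC for Slc6a12 was -0.34 ± 0.34 and was not called. Slc6a13, a GABA and taurine carrier, was called higher in ESC (1.40 ± 0.52, adjusted p = 0.0492) at values of 153, 218, 109 and 302, and 13 of 27 alternatives ended that call, among them leaving out MEF1 (0.99), WT MEF (1.32), MEF3 (1.51), ESC1 (1.47), ESC2 (1.40), ESC3 (1.06), ESC5 (1.26) or the 2 CiPS WT lines (adjusted p = 0.0675). For Slc6a13 the ESC sample of set 4 (109) lay below MEF2. The taurine carrier Slc6a6 and the creatine carrier Slc6a8 were not called in CiPSC (0.12 ± 0.26 and 0.07 ± 0.26).

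In family Slc38, Slc38a5 (SNAT5), which moves glutamine, asparagine and histidine, rose in CiPSC (1.97 ± 0.29, adjusted p = 1.18e-05), ESC (1.87 ± 0.34, adjusted p = 0.00018) and OSKM iPSC (2.70 ± 0.48, adjusted p = 0.000358). Somatic values were 37.5, 44.2 and 131 and CiPSC values 73.5, 213 and 517 (lowest, median, highest), with ESC at 287, 232, 186, 279.7 and 199. All 20 pluripotent samples lay above every somatic sample of their set. In SKM-FSK iPSC the difference was 1.00 ± 0.60 and not called (adjusted p = 0.317). Slc38a2 (SNAT2), an importer of small neutral amino acids that is induced by amino acid shortage, differed by -0.62 ± 0.24 in CiPSC (adjusted p = 0.0437) and -0.79 ± 0.28 in ESC (adjusted p = 0.0322), below the 2-fold limit. Slc38a8 was called in ESC (1.32 ± 0.45, adjusted p = 0.0294) and lost the call without ESC1 (0.88, adjusted p = 0.161) or ESC4 or MEF2 (0.93, adjusted p = 0.155) and without MEF1 (1.25, adjusted p = 0.055). Slc38a8 intensity was low, 21.1 to 56.4 in somatic samples, and in set 5 ESC5 (30.3) lay below MEF3 (37.7). In CiPSC Slc38a8 gave 0.84 ± 0.39, not called, and was called without MEF3 (1.08, adjusted p = 0.0274). Slc38a3 (SNAT3), a glutamine carrier, gave 0.87 ± 0.53 in SKM-FSK iPSC, not called, and was called without MEF3 (1.06, adjusted p = 0.0288). Probes of a gene could differ: the 3 of Slc38a1 gave 0.34, 1.44 and 0.28 in CiPSC against somatic samples, and the 3 of Slc38a10 gave -0.08, -1.79 and -0.34, the first of each being the one used.

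No member of family Slc16 (6 tested) or of family Slc36 (3 tested) was called in any of the 5 comparisons with all samples in the fit. Without MEF3, Slc16a11 was called higher in OSKM iPSC (1.34, adjusted p = 0.0143, against 1.13 with it). Slc36a3 was then called higher in OSKM iPSC (1.01, adjusted p = 0.00847, against 0.86) and SKM-FSK iPSC (1.15, adjusted p = 0.0176, against 1.03). Without the 2 CiPS WT lines, Slc16a9 was called higher in CiPSC (1.26, adjusted p = 0.0388, against 0.73 with them). With all samples in the fit, by limma, 0 members of either family had an unadjusted p under 0.05 in CiPSC or ESC against somatic samples or in CiPSC against ESC. In OSKM iPSC and in SKM-FSK iPSC, 1 member of each family did. Slc16a3 (MCT4), the lactate exporter of glycolytic cells, had somatic values of 161, 1086 and 3026 and CiPSC values of 57.4, 1192 and 3798, and its differences were -0.31 ± 0.57 in CiPSC, 0.95 ± 0.67 in ESC and 2.78 ± 1.17 in SKM-FSK iPSC. The ESC sample lay 3.36 above MEF2 in set 4 and 1.23 below MEF3 in set 5. Slc16a1 (MCT1), the most general lactate carrier, was measured in sets 4 and 5 alone and never exceeded 95.9, and it was not tested.

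Of 70 members measured in at least 2 sets with both groups, 13 were at least 2-fold higher in 1 set and at least 2-fold lower in another in CiPSC or ESC, as were 14.7% of all 19762 genes and unnamed probes measured that way. With values under 16 set to 16, 12 members remained (13.3% of all), all but Slc16a6, whose values in set 5 lay under 16. The 13 were Slc1a1, Slc1a2, Slc7a4, Slc7a5, Slc7a13, Slc16a3, Slc16a6, Slc16a7, Slc16a11, Slc16a12, Slc36a1, Slc38a1 and Slc38a3. Slc36a1 (PAT1), a proton-coupled carrier of small amino acids on lysosomes, was 1.68 lower in ESC2 than in the somatic mean of set 2 and 4.47 higher in ESC5 than in MEF3, where MEF3 held 38.3 and ESC5 850.1. Slc38a1 (SNAT1), a glutamine carrier, was 2.27 lower in ESC1 than in MEF1 and 1.11 higher in ESC5 than in MEF3. Sets 1, 3, 4 and 5 hold 1 somatic sample each, and set 2 holds 3.

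CiPSC and ESC were then compared with each other. Over all genes limma called 5 of 16497 (0.0303%), and it called 0 of 59 members, with 4 members at an unadjusted p under 0.05. The fitted difference lay within 2-fold for 56 of the 59, with a median SE of 0.33. Slc1a1 was -1.81 ± 0.53 (adjusted p = 0.419), and with R1 as the only ESC line it was -2.55 and called (adjusted p = 0.027). Slc1a5 was 1.21 ± 0.35 (adjusted p = 0.415). CiPSC values of Slc1a5 were above the ESC of their set in 10 of 11 samples, the exception being CiPS45 (4927) beside ESC2 (7190.4), and the ESC samples held 2835, 7190.4, 1208, 2136 and 2302. Slc2a10 (0.78 ± 0.28) and Slc38a10 (-0.53 ± 0.23) were the other 2, neither called (adjusted p = 0.749 and 0.963). Slc2a3 differed by -0.02 ± 0.34, Slc7a11 by -0.23 ± 0.30 and Slc6a9 by -0.13 ± 0.36. A miss of the threshold does not show that the lines were alike.

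CiPSC lines differed among themselves in a few transporters. Over the 4 lines of set 1 the median SD of the members was 0.29 (49 genes, all genes 0.33), and over the 4 lines of set 2 it was 0.39 (55 genes, all genes 0.45). Slc16a3 varied most in set 1, with 1192, 116, 399 and 1610.2 in CiPS34, MNF CiPS7, CiPS50 and CiPS21. Slc7a7 followed with 177, 293, 111 and 984 in the same order, and Slc1a1 with 309, 448, 390.2 and 70.1. CiPS21 was the highest for Slc16a3 and Slc7a7 and the lowest for Slc1a1 and for Slc6a8 (3558, against 18362 in CiPS50). In set 2, Slc6a15, a carrier of neutral amino acids, varied most, from 50.8 in MAF CiPS3 to 427 in CiPS45. Slc7a3 ran from 1037 in MAF CiPS3 to 7945 in CiPS45, and Slc6a7 from 161 in ADSC CiPS2 to 1072 in MNF CiPS1. These are values of single lines with no test. By contrast Slc7a11 stayed between 58.5 and 66.2 in set 1.

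**Figure D3:**
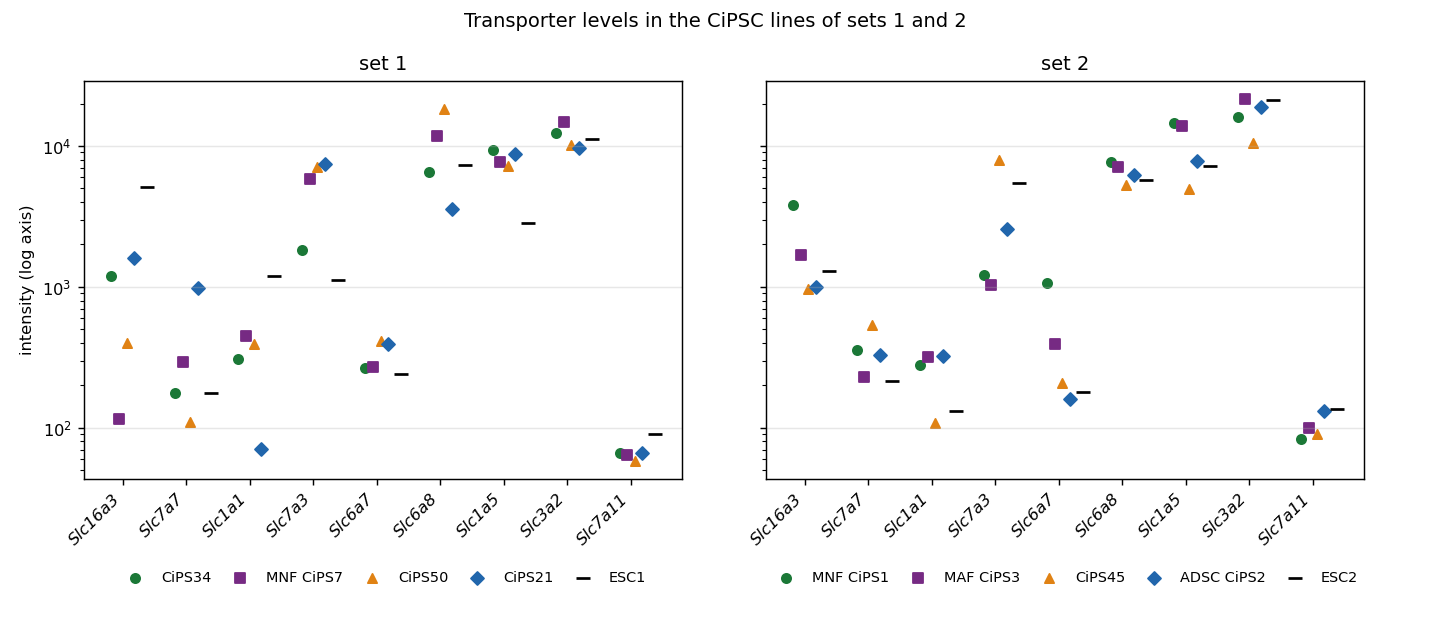
Intensity (vertical log axis) of 9 members in each of the 4 CiPSC lines and the ESC sample (black dash) of set 1 (left) and set 2 (right). In set 1 Slc16a3 spans 116 to 1610.2, whereas the 4 Slc7a11 points nearly coincide.

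The days of chemical treatment were compared with MEF3 within set 5, with 1 sample a day and no test. At days 12, 20 and 32, 24, 27 and 30 of 81 members were at least 2-fold above MEF3, against 24.9, 25.8 and 28.1% of all genes and unnamed probes, and 28, 23 and 26 were at least 2-fold below, against 31.5, 33 and 35.7%. With values under 16 set to 16 17, 21 and 27 members were above (20.5, 21.4 and 24% of all) and 25, 21 and 24 below (25.9, 27.2 and 29.7%). Since MEF3 stood apart from all other samples of its set, the members described first are those whose 3 treated values also lay at least 2-fold beyond the CiPSC control and ESC5. There were 7 such members above (3.75% of all genes and unnamed probes) and 2 below (1.27%). Over these days the summed fibroblast markers went from 222300 to 185700 and 157500, all above the 77650 of MEF3. The summed extraembryonic endoderm markers went from 3636 to 10210 and 23720 (4280 in MEF3). The part of these cell types in the changes was not tested, and more or fewer cells of a type cannot be told from more or less RNA per cell.

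Slc7a11 was high on all 3 days. Its intensity was 1016, 9973, 7919.8 and 5629 in MEF3 and at days 12, 20 and 32, and 92.5 in the CiPSC control and 104 in ESC5. Day 12 was 9.82-fold above MEF3, and day 32 was still 60.9-fold above the CiPSC control. The cystine exchanger thus lay above MEF3 under treatment and below it in the finished lines.

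Slc16a11 (MCT11), a monocarboxylate carrier, rose from 1592 in MEF3 to 18266, 17178 and 17239, and was 319.8 in the CiPSC control and 678 in ESC5. In the other 4 sets, which are scaled separately, it never exceeded 853. Slc2a13 rose from 882 to 2624, 2315 and 1875, then fell to 177 in the CiPSC control and 278 in ESC5, so that this inositol carrier was higher under treatment and lower in the lines than in MEF3. Slc1a2 (GLT-1), the main glutamate carrier of astrocytes, went from 30.5 to 566, 1282 and 1363, with 69.4 in the CiPSC control and 60.7 in ESC5. In both pluripotent samples this glutamate carrier was below its treated values and above MEF3. Slc2a2 (GLUT2), the glucose carrier of liver and islet cells, went from 13.7 to 446, 586 and 503, with 128 in the CiPSC control and 220.1 in ESC5. Slc16a3 read 161, 757, 647 and 877 in MEF3 and at days 12, 20 and 32, against 57.4 in the CiPSC control and 68.4 in ESC5. Slc16a12, a creatine carrier, read 5.92, 240.4, 232 and 357 in the same order, and 23.7 in the CiPSC control and 108 in ESC5. Of the 3 Slc16 members, Slc16a11 and Slc16a3 were lower in both pluripotent samples than in MEF3, and Slc16a12 was higher.

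The 2 members below all others under treatment were Slc7a3 and Slc6a7. Slc7a3 fell from 1519.8 to 107, 119 and 121, a 14.3-fold drop at day 12, and stood at 10515 in the CiPSC control and 3401 in ESC5. Slc6a7 went from 240.3 to 59.7, 80.2 and 89.8, with 585 in the CiPSC control and 918 in ESC5. Both are higher in the finished CiPSC lines than in somatic samples, while all 3 treated values lay below MEF3.

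**Figure D4:**
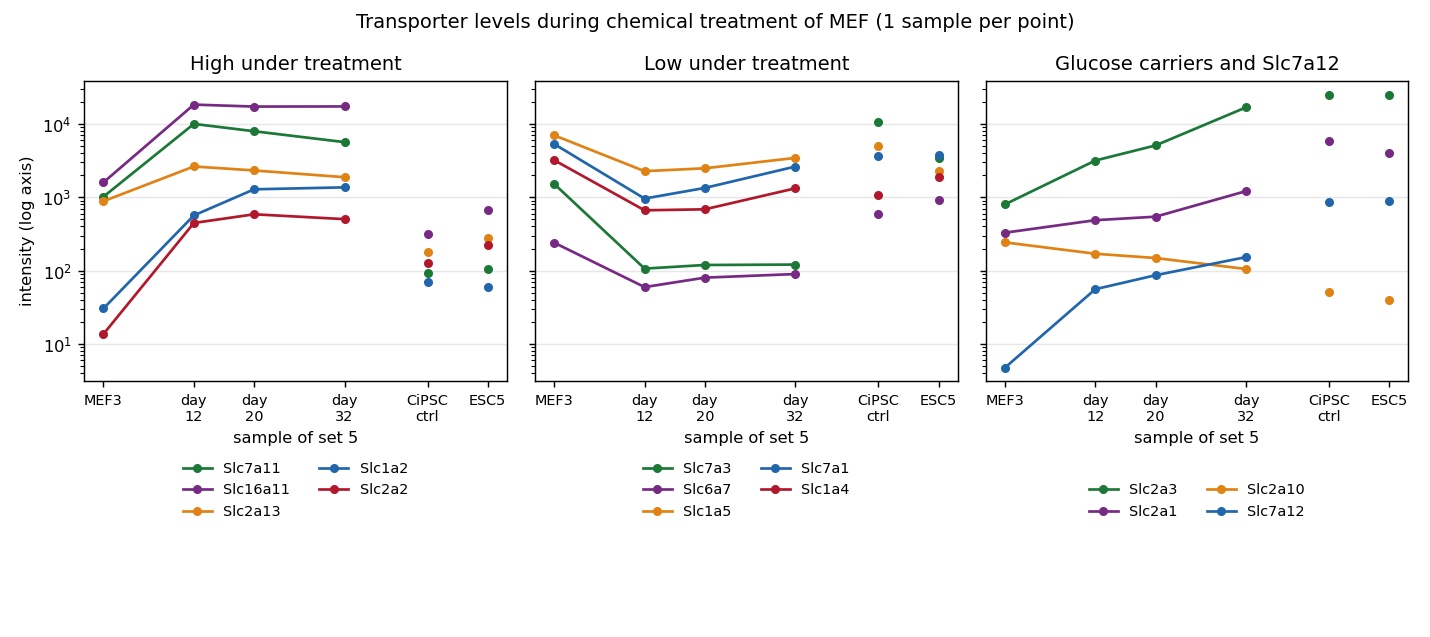
Intensity (vertical log axis) of 14 members in the 6 samples of set 5: MEF3, days 12, 20 and 32 of treatment (joined by lines, spaced by day with MEF3 at the left), the CiPSC control and ESC5; each point is 1 sample. Slc7a11 peaks at 9973 on day 12, Slc7a3 lies between 107 and 121 on the 3 days, and Slc2a3 climbs to 16747 by day 32.

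Of the glucose carriers that differed in the pluripotent lines, Slc2a3 moved earlier than Slc2a1. Slc2a3 read 798, 3160.1, 5076 and 16747 in MEF3 and at days 12, 20 and 32, against 24935 in the CiPSC control and 24660 in ESC5. Slc2a1 read 329, 487, 543 and 1211 in the same order, against 5912 in the CiPSC control and 4034 in ESC5. At day 32 Slc2a1 was at 3.69 times MEF3 and 0.205 times the CiPSC control. Slc2a3 was then at 21 times MEF3 and 0.672 times the CiPSC control. Slc2a10 went down over the days, 243, 169.8, 149 and 105, towards 50.5 in the CiPSC control and 40.4 in ESC5. Slc7a12, an amino acid carrier of the Slc7 family, read 4.75, 55.8, 86.6 and 153 and then 849 in the CiPSC control and 892 in ESC5. This height of Slc7a12 was seen in set 5 alone: over all 9 CiPSC measured the lowest and median values were 32.7 and 42.2, 3 of 17 pluripotent samples lay above all somatic samples of their set and 8 below, and it was not called (1.02 ± 0.77 in CiPSC).

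Other members followed other courses. Slc16a7 (MCT2), a high-affinity pyruvate and lactate carrier, read 29.8, 633, 1174 and 2873 in MEF3 and at days 12, 20 and 32, with 508 in the CiPSC control and 2171 in ESC5. Slc6a2, the noradrenaline carrier, was 904 in MEF3, 223, 1062 and 2027 at days 12, 20 and 32, and 161 in the CiPSC control and 109.7 in ESC5. The creatine carrier Slc6a8 rose to 14597 and 16409 at days 12 and 20 from 4923 and was 6159 at day 32. Slc38a2 went from 2356 to 4583, 5164 and 5687. Slc38a5, called higher in CiPSC, read 94.6, 105, 388 and 238 in MEF3 and at days 12, 20 and 32, with 517 in the CiPSC control and 199 in ESC5. Both Slc38 members were thus above MEF3 under treatment, whereas the following carriers were below it. Slc1a5 went from 6979 to 2264, 2478 and 3434, Slc7a1 from 5311 to 959, 1338 and 2616, and Slc1a4 from 3199 to 664, 684 and 1322. The heavy chain Slc3a2 went from 24660 to 16823, 15855 and 11606. Slc38a7, a lysosomal glutamine carrier, went from 1589.9 to 357, 276 and 351, and Slc7a2 from 815 to 241, 198 and 156. Slc6a17, a neutral amino acid carrier of vesicles, went from 5741 to 1855, 1579 and 706, with 1103 in the CiPSC control and 502 in ESC5.

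In some members MEF3 differed from all 5 other samples of the set, the pluripotent ones included. Slc7a7 was 23.0 in MEF3 and 518, 514 and 511 under treatment, but also 492 in the CiPSC control and 509 in ESC5. Slc36a1 had 38.3 in MEF3 against 809, 736 and 871, and 338 in the CiPSC control and 850.1 in ESC5. In the other direction Slc2a4 had 1674 in MEF3 against 305, 289 and 175, and 277 in the CiPSC control and 277 in ESC5. Slc6a11, a GABA carrier, had 523 against 95.8, 92.3 and 93.5. Slc6a4, the serotonin carrier, had 223 against 65.2, 61.0 and 53.5, and Slc1a6 had 533 against 83.8, 88.5 and 108. In the MEF of other sets Slc2a4 was 221, 209 and 325, on scales set separately.

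Genes that work with these carriers were taken from 4 lists. Of the amino acid response genes governed by ATF4, 3 of 20 tested were called higher and 6 lower in CiPSC than in somatic samples (median -0.04), and 1 and 5 in ESC. Over all genes 14.8 and 13.3% were called in CiPSC and 15.1 and 14.2% in ESC. Asns, which makes asparagine, rose (1.14 ± 0.30 in CiPSC), and Cebpb (-3.26 ± 0.40), Atf5 (-3.18 ± 0.36) and Vldlr (-2.23 ± 0.41) fell, as did Slc7a11. Under treatment Cebpb read 1439.6, 10177, 7309.9 and 6591 and Vldlr 63.4, 987, 996 and 1182 in MEF3 and at days 12, 20 and 32, whereas Trib3 read 5738, 136, 152 and 293 and Cth, which makes cysteine from cystathionine, read 4510.2, 129, 310.1 and 552. With the floor of 16, 4 of the 22 measured at day 12 were at least 2-fold above MEF3 and 6 below (20.5 and 25.9% of all genes and unnamed probes), and 8 and 4 at day 32 (24 and 29.7%).

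Of the enzymes of glutamine, glutamate and branched-chain amino acids, 7 of 13 tested were called higher and 1 lower in CiPSC (median 1.24), and 4 and 1 in ESC (median 0.96), where the medians of all genes were -0.11 and -0.10 and the shares called 14.8 and 13.3% in CiPSC and 15.1 and 14.2% in ESC. The examples were Got1 (1.79 ± 0.25 in CiPSC), Prodh (1.52 ± 0.19), Gclm (1.49 ± 0.42), a subunit of the enzyme that starts glutathione synthesis, and, lower, Oat (-1.65 ± 0.30). Of genes that sense amino acids for the kinase complex mTORC1, 4 of 24 were higher and 2 lower in CiPSC (median 0.02), against 14.8 and 13.3% of all genes, among them Rragd (2.69 ± 0.41), Rragb (2.26 ± 0.37) and Castor1 (1.74 ± 0.24) higher and Castor2 (-1.67 ± 0.47) lower. At day 12, 13 of these 24 were at least 2-fold above MEF3 and 3 below (median 1.16), where 20.5 and 25.9% of all genes and unnamed probes were. Of the 13, 10 were at least 2-fold above MEF3 in the CiPSC control and ESC5 too, and all 3 lower ones were below in both. Rraga, for example, read 512, 6859, 6960 and 5952 in MEF3 and at days 12, 20 and 32, and 6569.9 in the CiPSC control. Of the partners of glucose and lactate carriers, 4 of 16 were higher and 2 lower in CiPSC (median 0.45), against 14.8 and 13.3% of all genes. Ldhb (2.27 ± 0.43), Hk2 (1.98 ± 0.32), which traps glucose as its phosphate, and Pdk1 (1.84 ± 0.55) rose. Hif1a was called lower (-1.99 ± 0.38), but its values in set 5 all lay under 16, as did that of Pdk1 in MEF3, so these sizes rest partly on values near background. In CiPSC against ESC, limma called 0 genes of any of the 4 lists, of 20, 13, 24 and 16 tested.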

How the data were processed

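The labels state Cy5-labelled RNA on the Mouse Whole Genome OneArray v2, 1 array colour, for 30 samples. The values are normalized linear intensity deposited by the authors, 1 column per sample, in 5 sets normalized separately per the design text, with near-identical quantiles within a set; for the background correction, the method is not given in the sources used here. Intensities were converted to log2 with no floor. Of 26423 probes, 21876 named a gene in the platform annotation and 4547 none, and 21825 matched the RefSeq table. The probe measured in most samples, then the highest mean, stood for a gene. Group and set were fitted with limma 3.58.1 in R 4.3.3, in genes with values in 2 sets holding both groups (1 for OSKM and SKM-FSK iPSC) and with 3 or more residual degrees of freedom. Adjusted p-values are Benjamini-Hochberg values over all genes and unnamed probes tested, and errors are SE of the fitted log2 difference. The fit was tested on simulated data. For each comparison, 100 genes were given a difference of 2 in log2 and 100 others a difference of 1. Against somatic samples, 88 of the larger differences were recovered in CiPSC, 83 in ESC, 33 in OSKM iPSC and 9 in SKM-FSK iPSC. In CiPSC against ESC it was 75. Of the smaller differences, 25, 14, 2, 0 and 15 were recovered in the same order. Few genes were changed in the simulation, whereas the real fit called 2757 in OSKM iPSC and 2474 in SKM-FSK iPSC. The adjusted p was thus harder to pass in the simulation, and its counts do not give the share missed in the real fit. Precision is limited by the number of samples in each group and set. The members, lists and named genes were chosen with earlier results of these data known. Named members are those called, those past 2-fold from MEF3 (up to 8 each way and day), the highest of each family, those of opposite sign between sets and 11 chosen carriers; Slc6a15, Slc7a8, Slc7a6, Slc7a12, Slc6a6, Slc6a21 and the uncalled CiPSC and ESC pairs named in a count were added after their values were seen. Alternatives covered normalization, probes, floors, set terms and each sample left out.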

Additional observations from a re-analysis of the deposited data

Results flagged for a closer look

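In 4 of the 40 groups tested, each a called member in the 4 to 7 somatic or 4 to 5 ESC samples with set terms removed, the outermost sample lay farther from its neighbour than Dixon's 95% limit. Chance flags about 1 in 20 groups. Slc1a1 was lowest in the TT2 sample ESC2 at a log2 level of 7.71, with the nearest ESC sample at 9.76. Slc2a5 was highest in ESC5 at 8.09, with the nearest at 6.58. Slc7a7 was highest in ESC5 at 8.89, with the nearest at 7.46. Slc7a3 was lowest in MAF at 6.46 among the somatic samples, with the nearest at 9.20.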

How the results depend on the processing

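Of the 50 calls of single members against somatic samples, 30 held under every alternative run for them and 20 were lost under at least 1. Those of Slc2a3, Slc2a10 and Slc7a2 held in every comparison in which they were called. With no set term, the called members in SKM-FSK iPSC were 9 higher and 2 lower, and in OSKM iPSC 3 higher; that setting moved the median of all genes in SKM-FSK iPSC to 0.73. Without set 5, 4 members were higher in SKM-FSK iPSC, as they were without MEF3. Leaving out 1 sample at a time gave, for members higher and lower, 6 to 8 and 8 to 10 in CiPSC, 6 to 10 and 7 to 9 in ESC, 2 to 7 and 3 to 7 in OSKM iPSC, and 2 to 4 and 3 to 6 in SKM-FSK iPSC. Against ESC, CiPSC had 0 higher and 0 to 1 lower. With R1 as the only ESC line, 1 member (Slc1a1) was called lower.

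The numbers in the titles were tried as a replicate block. Samples sharing a number came mostly from different sets. In 13 such pairs the correlation of their residuals over 10732 genes and unnamed probes ran from -0.40 to 0.38. The group and set terms of the fit tie residuals of samples to each other, so these values do not decide whether the numbers pair samples. With the block, 1 member (Slc36a1, -4.54, adjusted p = 0.038 by limma) was lower in CiPSC than in ESC, Slc38a10 turned to 0.0911, and the calls over all genes went from 4838 to 3099 in ESC against somatic samples and from 5 to 103 in CiPSC against ESC. The fit on sets holding both groups alone could not be made for SKM-FSK iPSC. Signal limits 12 members that never exceeded 100 and 6 that lay under 16 in every value.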
